A study of Mus musculus with 7 samples.

Results

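The amino acid transporters described here are the protein-coding genes whose symbols start with Slc1a, Slc6a, Slc7a, Slc36a, Slc38a or Slc43a, without Slc7a11. By that rule there were 61 members among 56953 genes: 7 of Slc1a, 21 of Slc6a, 15 of Slc7a, 4 of Slc36a, 11 of Slc38a and 3 of Slc43a. One of them, Slc7a6os, carries the name of its neighbour Slc7a6 and is not a carrier, so 60 of the 61 are carrier genes. RNA came from CD45- CD31- cells, a gate set against leukocytes and vessel lining cells, sorted with a viability dye from tumours of the mouse melanoma line B16 at 5 days after treatment. All mice had radiotherapy at 8 Gy. In 3 mice it was combined with AAV-iIL12, an adeno-associated virus vector named for the cytokine interleukin 12, and in 4 mice with the control vector AAV-iLuc. Strain, age, vector dose and the promoters of the vectors are not given in the sources used here, and B16 is 1 transplanted line, so the tumour cells of all mice share their origin.

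Amino acids cross membranes on carriers that differ in substrate, driving ion and partner protein. Some carriers concentrate amino acids with sodium or protons, such as many of the SLC38 and SLC36 families, while exchangers such as those of SLC7 and the ASC type of SLC1 trade 1 amino acid for another. In tumour cells the pair of Slc7a5 and the heavy chain Slc3a2 is best known for leucine uptake, and Slc1a5, Slc38a1 and Slc38a2 for glutamine. The SLC6 family holds the carriers of glycine, taurine, creatine and several neurotransmitters. The comparison asks how the RNA of these genes differed between irradiated tumours with AAV-iIL12 and those with AAV-iLuc.

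Libraries held between 16356653 and 19080587 counts. Both vector groups carried the melanocyte genes at high level. In CPM, counts relative to the scaled library total, the 7 markers of the list summed to 27850 to 28740 in AAV-iIL12. In AAV-iLuc they summed to less, 22840 to 25990 CPM. Of the 7 markers 3 were called as higher, Pmel, Mlana and Mitf, and 4 were not called. Il12a was at 14.2 to 15.8 CPM in AAV-iIL12 and at 0 in AAV-iLuc. Leukocyte genes were low, with 0 of 5 tested called. Itgb2 alone was at 10.4 to 11.9 CPM in AAV-iIL12 and at 6.69 to 11.6 CPM in AAV-iLuc. With Itgb2 included, 8 markers summed to between 14.8 and 22.2 CPM in AAV-iIL12. Control replicate 1 stood apart from its group: that sum was 21.3 CPM there against 7.68 to 9.71 CPM in the other controls, and the interferon-induced gene Gbp2 was at 101 CPM there against 3.20 to 24.8 CPM. T and NK cell genes summed to at most 1.52 CPM and endothelial genes to at most 0.416 CPM in any library, with Cdh5, Tie1 and Emcn at 0 throughout. Fibroblast genes summed to between 57.5 and 156 CPM in AAV-iIL12 and to between 83.1 and 290.5 CPM in AAV-iLuc, and 0 of 8 were called. Macrophage and dendritic cell genes summed to 21.3 to 28.9 CPM and 15.4 to 29.8 CPM, with 0 of 5 tested called. Keratinocyte genes summed to at most 0.163 CPM. Pericyte and smooth muscle genes summed to 5.97 to 6.73 CPM in AAV-iIL12 and 9.17 to 10.7 CPM in AAV-iLuc. Most of that sum was Cspg4, called as lower at 4.04 against 8.70 CPM. Myh11, not called, and Acta2, not tested, went the other way, at 1.49 against 0.839 and 0.822 against 0.396 CPM. The other markers of this list, Rgs5 and Kcnj8, were nearly absent, with 1 and 3 counts in all. The part of these other cells in the results on carriers was not tested. In bulk RNA, fewer cells of a type and less RNA per cell cannot be told apart.

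Of the 61 members, 28 had enough counts to be tested, and the groups were compared with edgeR's quasi-likelihood test over all 13990 genes that passed the low-count filter. A gene is called here at a Benjamini-Hochberg adjusted p under 0.05. Among the tested members 6 rose, 9 fell and 13 were not called. That is 53.6% of tested members called, where 47.2% of all tested genes were called, 23.5% as higher and 23.7% as lower, so the share of carriers called was near the background. CPM of the groups did not overlap in 16 of the 28 tested members and in 52.5% of all tested genes. Their changes were modest. The median absolute log2 fold change was 0.29 over the tested members and 0.278 over all tested genes, and 11.2% of all tested genes passed an absolute log2 fold change of 1. Among the members only Slc7a3 did, a scarce gene that entered the test only through the group in which it was higher. The median log2 fold change was -0.041 for the tested members and -0.005 for all tested genes. With library size as the only scaling 5 members rose and 13 fell, and with upper quartile scaling 5 rose and 12 fell. The share of higher calls over all genes was 49.8% with the main scaling, 36.0% with library size only and 38.5% with upper quartile.

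**Figure D1:**
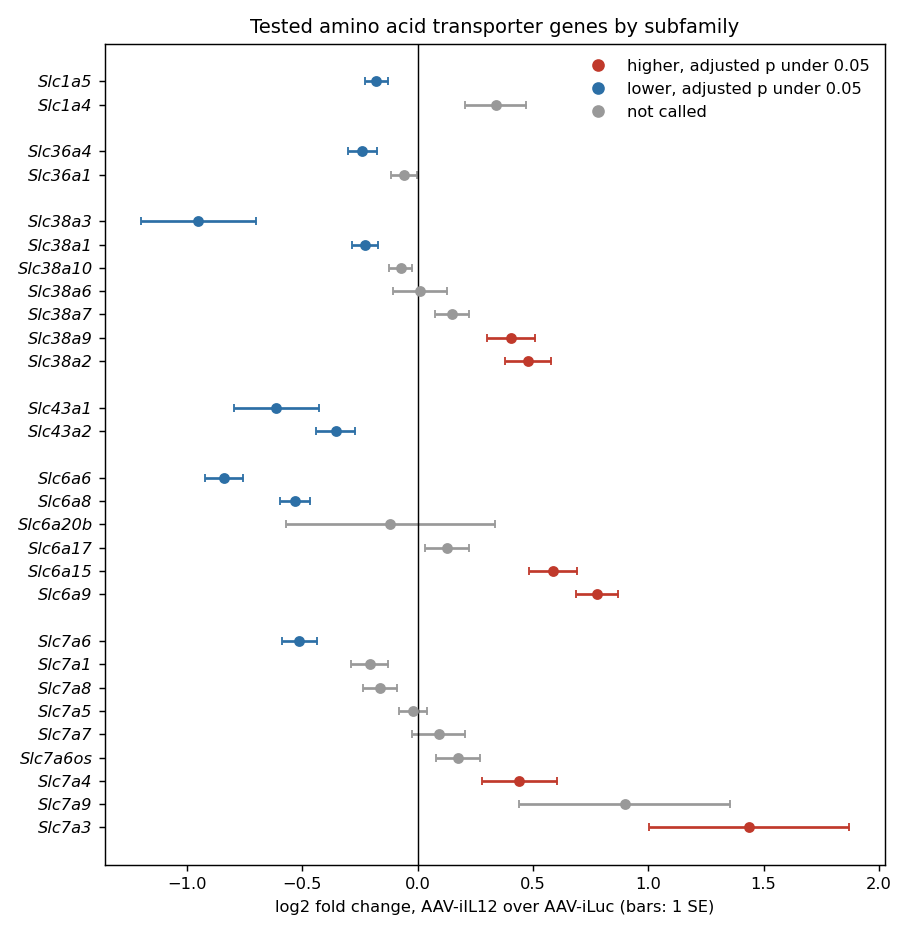
Log2 fold change of AAV-iIL12 over AAV-iLuc on the x axis for the 28 tested genes, grouped by subfamily, with bars of 1 SE; red and blue points are genes called higher and lower, and grey points are not called. Slc6a6 and Slc6a8 lie left of 0 and Slc6a9 and Slc6a15 right of 0, so that members of 1 subfamily are called in both directions.

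Of 6 tested Slc6a genes 2 rose, Slc6a9 and Slc6a15, 2 fell, Slc6a6 and Slc6a8, and 2 were not called. Slc6a6 (ENSMUSG00000030096, chromosome 6, 91661034 to 91736047, GRCm39) encodes the taurine carrier, which brings in an osmolyte that also buffers oxidants. Its levels were 411, 397, 403 and 448.5 CPM in the controls and 203, 253 and 239 CPM in AAV-iIL12. The highest AAV-iIL12 library thus lay far below the lowest control. The log2 fold change was -0.84 ± 0.083 (SE, edgeR adjusted p = 3.1e-05), so that the level fell by 44.2%. Slc6a8 (chromosome X, 72716756 to 72726108), the creatine carrier, stood at 171, 195, 179 and 193 CPM in AAV-iLuc and at 134, 128 and 121 CPM in AAV-iIL12. It fell by 30.8% (log2 fold change -0.53 ± 0.065, edgeR adjusted p = 1.1e-04), again with no overlap between the groups.

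Slc6a9 (ENSMUSG00000028542, chromosome 4, 117691703 to 117732395) encodes the glycine carrier GlyT1. It rose from 13.9, 11.9, 12.4 and 14.0 CPM in AAV-iLuc to 24.2, 21.5 and 21.7 CPM in AAV-iIL12, a log2 fold change of 0.78 ± 0.090 (edgeR adjusted p = 8.3e-05). Slc6a15, a sodium-driven carrier of branched-chain amino acids and proline, rose from 14.7 ± 1.65 CPM (SD, n = 4) to 22.0 ± 2.03 CPM (n = 3). Its controls stood at 13.5, 16.7, 13.2 and 15.3 CPM and its AAV-iIL12 libraries at 21.3, 24.3 and 20.5 CPM, with no overlap (log2 fold change 0.59, edgeR adjusted p = 0.0012). The ratio of Slc6a9 to Slc6a6, each as CPM per kb of exon, was 0.0493 to 0.0558 in the 4 controls and 0.140 to 0.196 in the 3 AAV-iIL12 libraries. Slc6a17, a neutral amino acid carrier of vesicles, was the most abundant Slc6a gene with no call. It stood at 373, 410, 358 and 312 CPM in AAV-iLuc and at 358, 427 and 405 CPM in AAV-iIL12, with overlapping groups (edgeR adjusted p = 0.298). Slc6a20b was at 0.897 ± 0.507 against 0.982 ± 0.462 CPM, and its copy Slc6a20a had 0 counts in every library. These genes are close copies, and the counting between them is uncertain.

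**Figure D2:**
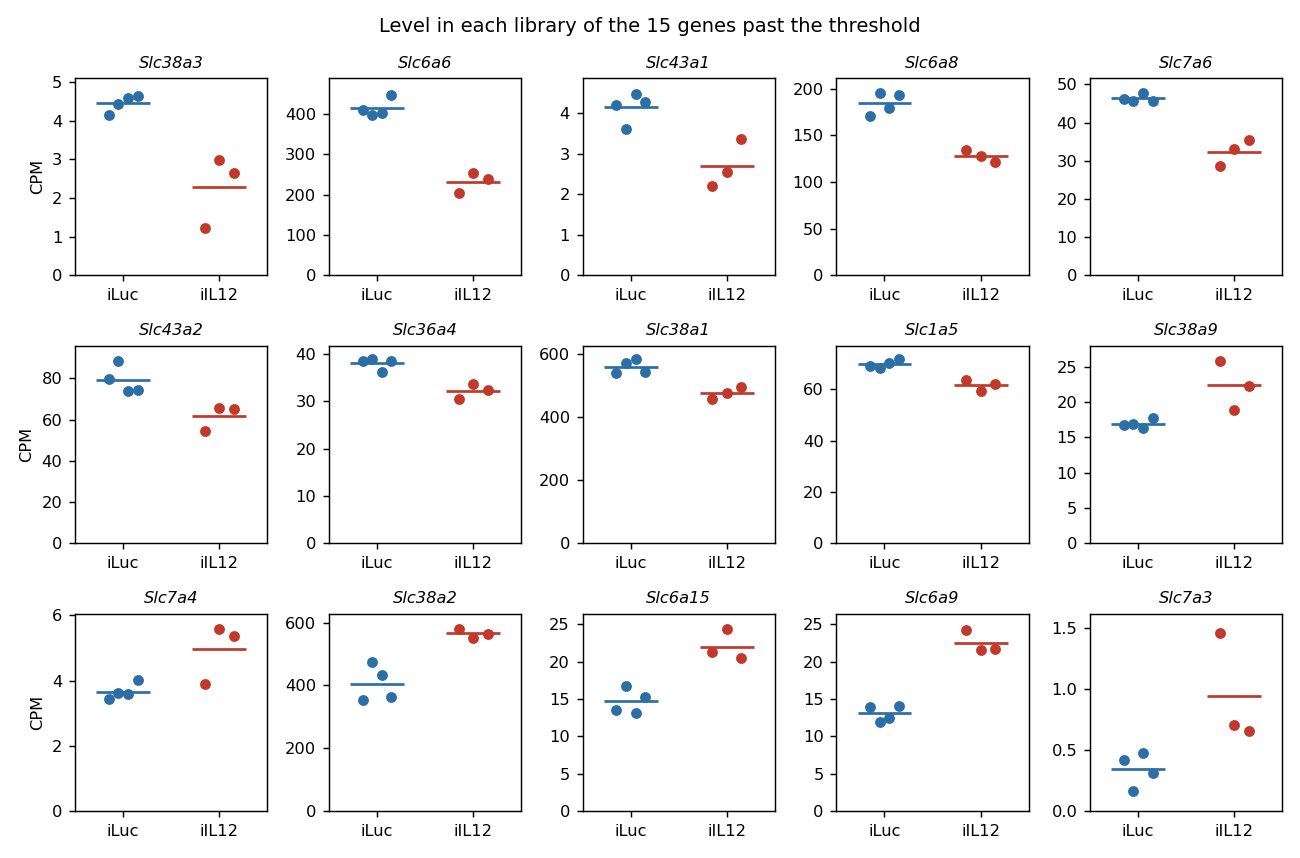
CPM on the y axis, from 0, in each library for the 15 genes past the threshold, ordered from the lowest to the highest log2 fold change; each point is 1 library (4 AAV-iLuc in blue, 3 AAV-iIL12 in red) and the line is the group mean. The groups do not overlap in 14 of the 15 genes, Slc7a4 being the exception, and in 52.5% of all tested genes. The 15 were called on these same libraries, so the lack of overlap is no further support.

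Of 7 tested Slc38a genes, carriers of glutamine and small neutral amino acids, 2 rose, 2 fell and 3 were not called. Slc38a2 (ENSMUSG00000022462, chromosome 15, 96585273 to 96597611) encodes SNAT2, a sodium-driven carrier known to be raised when amino acids are scarce. Control libraries held 353, 474, 433 and 363 CPM and AAV-iIL12 libraries 580, 552 and 565 CPM. Every AAV-iIL12 library was above every control, and the controls were the more scattered (log2 fold change 0.48 ± 0.099, edgeR adjusted p = 0.0029). Its neighbour on chromosome 15, Slc38a1 (96469299 to 96540794), encodes SNAT1 and fell from 538, 570, 582 and 541 CPM to 458, 476 and 494 CPM (log2 fold change -0.23 ± 0.057, edgeR adjusted p = 0.0079). Per kb of exon, the ratio of Slc38a2 to Slc38a1 was 1.28, 1.62, 1.45 and 1.31 in AAV-iLuc and 2.47, 2.26 and 2.23 in AAV-iIL12.

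Slc38a9 encodes the lysosomal carrier through which arginine is sensed by the kinase complex mTORC1. It rose from 16.7, 16.8, 16.3 and 17.7 CPM to 25.8, 18.9 and 22.3 CPM (log2 fold change 0.40 ± 0.10, edgeR adjusted p = 0.0095), with the AAV-iIL12 libraries more scattered than the controls. Slc38a3, the glutamine carrier SNAT3, was scarce and fell from 4.16, 4.44, 4.59 and 4.64 CPM to 1.22, 2.99 and 2.64 CPM (log2 fold change -0.95 ± 0.25, edgeR adjusted p = 0.010). The lowest of these was AAV-iIL12 replicate 1. Slc38a10, a less well described member and 1 of the most abundant carriers, stood at 458, 470, 464 and 467 CPM against 430, 445 and 450 CPM. These groups did not overlap, but the difference was not called (log2 fold change -0.07, edgeR adjusted p = 0.257). It was called as lower with library size only (edgeR adjusted p = 0.0193) and with upper quartile scaling (0.0359). Slc38a7 and Slc38a6 were not called, at 45.7 against 41.2 CPM and 19.9 against 19.8 CPM.

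**Figure D3:**
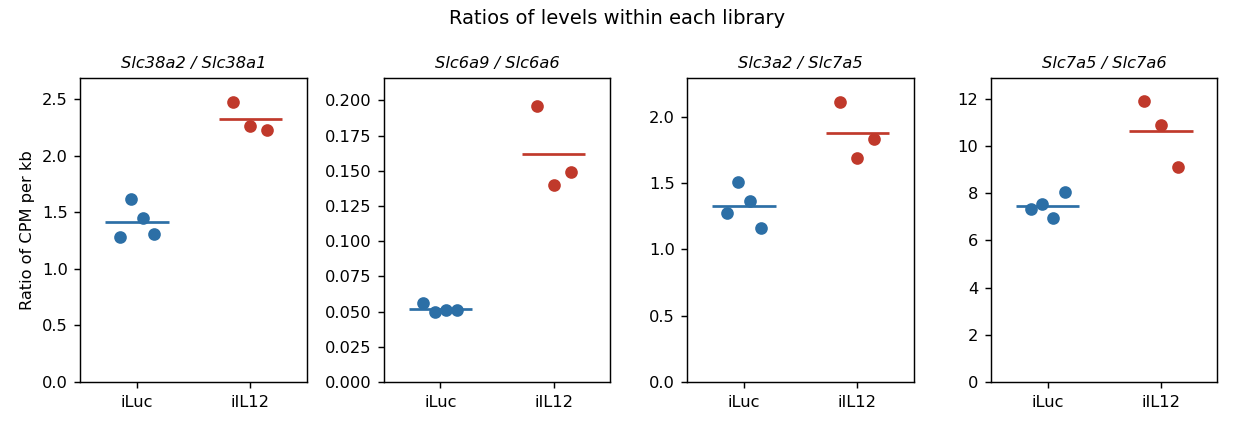
Ratio of CPM per kb of exon between pairs of genes within each library, from 0; points are libraries and lines are group means. All 4 ratios are higher in the AAV-iIL12 libraries, which follows from the fold changes of the paired genes and is no further support. For Slc38a2 over Slc38a1 the controls reach at most 1.62 and the AAV-iIL12 libraries at least 2.23.

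In Slc7a, the main leucine carrier was not called while its heavy chain rose. Slc7a5 (ENSMUSG00000040010, chromosome 8, 122607889 to 122634433) encodes LAT1 and had the highest level per length of all members. The controls held 275, 280, 269 and 299 CPM and the AAV-iIL12 libraries 277, 292 and 262 CPM, which overlap (log2 fold change -0.02 ± 0.062, edgeR adjusted p = 0.807). Slc3a2, no member but the heavy chain that Slc7a5, Slc7a6, Slc7a7 and Slc7a8 need to reach the surface, rose from 332, 403, 349 and 331 CPM to 556, 469.5 and 456 CPM (log2 fold change 0.48 ± 0.092, edgeR adjusted p = 0.0018). Per kb, Slc3a2 was at 1.16 to 1.51 times Slc7a5 in AAV-iLuc and at 1.69 to 2.11 times in AAV-iIL12. Slc7a11, the cystine carrier that also uses Slc3a2, was at 4.21 ± 0.168 against 5.67 ± 1.86 CPM and was not called (edgeR adjusted p = 0.154). Its controls were spread from 4.23 CPM in replicate 3 to 8.16 CPM in replicate 1.

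Slc7a6 (ENSMUSG00000031904, chromosome 8, 106895489 to 106925338) encodes y+LAT2, which exports arginine in exchange for neutral amino acids. It fell from 46.2, 45.7, 47.7 and 45.7 CPM to 28.8, 33.1 and 35.4 CPM, clear of the controls in every library (log2 fold change -0.51 ± 0.075, edgeR adjusted p = 3.4e-04). Its neighbour Slc7a6os, whose protein serves nuclear import of RNA polymerase II, was not called, at 27.2 ± 1.24 against 24.1 ± 2.86 CPM, though it was as higher when AAV-iLuc replicate 3 was left out (edgeR adjusted p = 0.0342). The other light chains of Slc3a2 were not called either: Slc7a8, or LAT2, was at 54.1 ± 5.61 against 60.7 ± 3.02 CPM, and Slc7a7, or y+LAT1, at 8.34 ± 0.854 against 7.82 ± 0.610 CPM. Slc7a8 was called as lower with library size only (edgeR adjusted p = 0.0199), with upper quartile scaling (0.0249) and when AAV-iIL12 replicate 3 was left out (0.0331). Slc7a1, the main carrier of arginine and lysine, stood at 285, 317.5 and 321 CPM in AAV-iIL12 and at 340, 403, 329 and 350 CPM in AAV-iLuc. Those groups did not overlap and the gene just missed the threshold (log2 fold change -0.21 ± 0.081, edgeR adjusted p = 0.057), which it passed as lower in 6 of the 16 alternatives, among them DESeq2 (adjusted p = 0.0327), limma-voom (0.0426) and library size only (edgeR 0.0092). The range over all alternatives was 0.0092 to 0.184.

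Among scarce Slc7a genes, Slc7a3, a cationic amino acid carrier, had 24, 13 and 12 counts in AAV-iIL12 and 8, 3, 8 and 6 in AAV-iLuc. Its log2 fold change was 1.44 ± 0.43 (edgeR adjusted p = 0.020). The gene passed the low-count filter only through the AAV-iIL12 libraries, the group in which it was higher, so the call is no independent support, and leaving out AAV-iIL12 replicate 1 ended the call (log2 fold change 0.996, edgeR adjusted p = 0.103). Slc7a4, a family member without a settled substrate, was at 3.90, 5.59 and 5.38 CPM against 3.43, 3.62, 3.57 and 4.02 CPM. It was called as higher only narrowly (log2 fold change 0.44, edgeR adjusted p = 0.048), and the call ended in 13 of the 16 alternatives, 6 of them leaving out 1 library: AAV-iIL12 replicate 2 or 3, or any control replicate (edgeR adjusted p = 0.0519 to 0.173). Slc7a9, the light chain that pairs with Slc3a1, had wide overlap at 0.843 ± 0.325 against 0.440 ± 0.229 CPM (edgeR adjusted p = 0.134).

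Both tested genes of Slc43a, a family of sodium-independent carriers of large neutral amino acids, were lower in AAV-iIL12. Slc43a2, or LAT4, fell from 79.7, 88.5, 74.0 and 74.4 CPM to 54.5, 65.7 and 65.2 CPM (log2 fold change -0.36 ± 0.085, edgeR adjusted p = 0.0062). Slc43a1, or LAT3, fell from 4.21, 3.62, 4.47 and 4.28 CPM to 2.19, 2.55 and 3.35 CPM without overlap (log2 fold change -0.61, edgeR adjusted p = 0.019). That call did not hold when AAV-iIL12 replicate 1 or 2 was left out (edgeR adjusted p = 0.0725 and 0.0663). Slc43a3, which carries purine nucleobases and not amino acids, had too few counts to be tested, with 31, 8 and 16 in AAV-iIL12 against 3, 3, 8 and 5.

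The neutral exchangers of Slc1a were the only testable members of that subfamily. Slc1a5, or ASCT2, the glutamine exchanger, fell from 69.2, 68.4, 70.3 and 71.9 CPM to 63.8, 59.4 and 62.1 CPM. The groups did not overlap, yet the fall was of 11.7% (log2 fold change -0.18 ± 0.049, edgeR adjusted p = 0.012), and it was no longer called when AAV-iIL12 replicate 2 was left out (edgeR adjusted p = 0.0639) or with no low-count filter (0.0509). Slc1a4, or ASCT1, which exchanges alanine, serine and cysteine, was at 32.5 ± 1.39 against 25.7 ± 5.01 CPM with overlapping groups (edgeR adjusted p = 0.058). It was called as higher in DESeq2 (adjusted p = 0.0278), in limma-voom (0.0403), with no low-count filter (edgeR 0.00955) and without AAV-iLuc replicate 2 (0.00741). The glutamate carriers of the family were nearly absent: Slc1a3, Slc1a6 and Slc1a7 had 0 counts, Slc1a2 had 5 and Slc1a1 had 29 in all 7 libraries. A count of 0 allows a level of up to 0.155 to 0.183 CPM in a library, from 3 counts.

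Slc36a is a family of amino acid carriers known for proton-coupled members such as Slc36a1. Slc36a4, which carries proline and tryptophan, fell from 38.5, 38.9, 36.2 and 38.5 CPM to 30.5, 33.6 and 32.4 CPM (log2 fold change -0.24 ± 0.063, edgeR adjusted p = 0.0098). Slc36a1, the lysosomal carrier PAT1, was at 47.9 ± 1.29 against 49.9 ± 1.85 CPM and was not called, though it was with library size only (edgeR adjusted p = 0.0489). Slc36a3 and Slc36a2 had 32 and 2 counts in all.

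Per length, a few carriers made up most of the RNA. The 6 tested members with the highest mean were Slc7a5 at 75.3, Slc38a10 at 70.9, Slc38a2 at 53.7, Slc6a6 at 39.8, Slc6a17 at 36.7 and Slc6a8 at 30.8 CPM per kb, closely followed by Slc38a1 at 30.3 and Slc7a1 at 29.1. Together these 8 held between 79.6% and 81.0% of the summed level of all carriers in every library. In both groups Slc7a5 and Slc38a10 lay close together, at 70.6 to 80.6 and 67.0 to 73.2 CPM per kb over the libraries. Slc38a2 and Slc6a6 were at 39.9 to 53.7 and 46.9 to 53.0 CPM per kb in AAV-iLuc, so their ranges met. In AAV-iIL12 they were apart, at 62.5 to 65.7 and 24.0 to 29.9 CPM per kb. The share of Slc38a2 in the summed carrier level was 9.78 ± 1.21% in AAV-iLuc and 14.5 ± 0.663% in AAV-iIL12, and that of Slc6a6 was 10.5 ± 0.691% and 6.20 ± 0.569%.

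**Figure D4:**
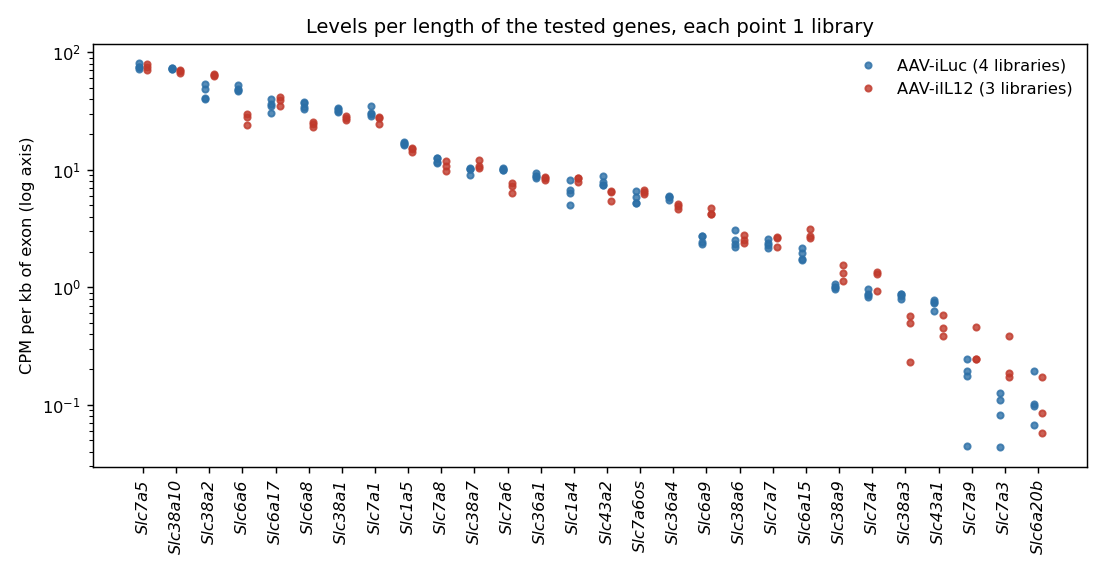
CPM per kb of exon on a log axis for the 28 tested genes in order of their mean, each point being 1 library (AAV-iLuc in blue, AAV-iIL12 in red). Mean levels span from Slc7a5 at 75.3 to Slc6a20b at 0.111, and the points of Slc6a6 lie apart, with AAV-iIL12 at 24.0 to 29.9 and AAV-iLuc at 46.9 to 53.0.

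By substrate, the group with the taurine and creatine carriers had a lower summed level in every AAV-iIL12 library than in any control. Its sum, nearly all from Slc6a6 and Slc6a8, was 84.5 ± 4.01 CPM per kb in AAV-iLuc and 51.9 ± 2.43 in AAV-iIL12, and both tested genes of its 6 members fell. Cationic and cationic-neutral exchange carriers summed to 43.6 ± 2.92 against 36.9 ± 2.01 CPM per kb, with 1 of 5 tested genes higher and 1 lower. Small neutral and glutamine carriers of Slc38a summed to 165 ± 7.87 against 176 ± 2.03, with 2 of 7 higher and 2 lower. Large and broad neutral carriers summed to 133.7 ± 3.85 and 133.6 ± 6.93, with 1 of 6 tested genes higher and 2 lower. The imino acid and glycine group, which rests on Slc6a9, summed to 2.77 ± 0.183 against 4.56 ± 0.295 CPM per kb, the ASC exchangers to 23.3 ± 1.09 against 23.1 ± 0.876 and the Slc36a group to 14.8 ± 0.388 against 13.6 ± 0.416. Over all 60 carriers the sum was 469 ± 14.0 in AAV-iLuc and 441 ± 9.06 CPM per kb in AAV-iIL12. These sums are descriptions, with no test.

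**Figure D5:**
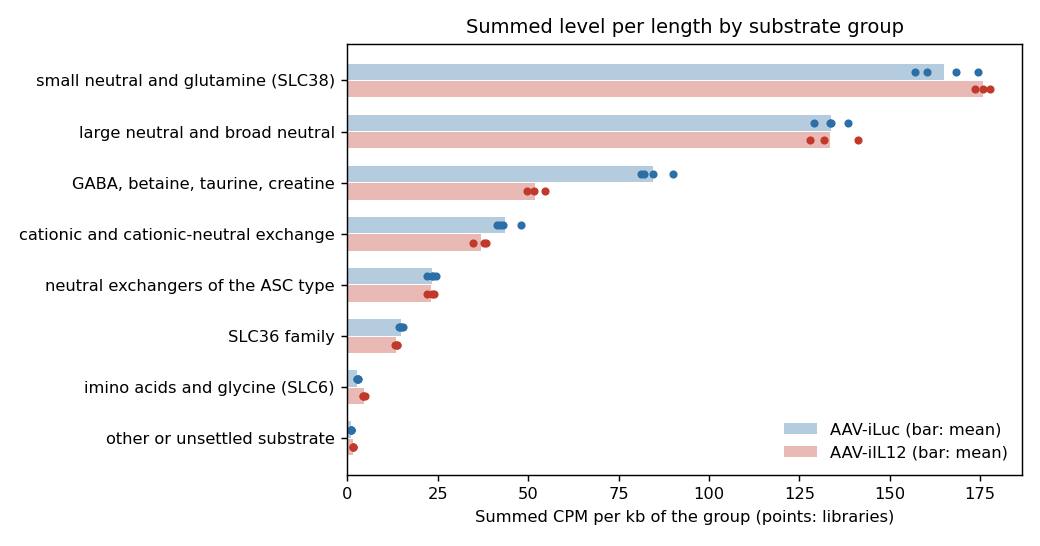
Summed CPM per kb of exon of each substrate group, from 0, with bars for the mean and points for each library (4 AAV-iLuc in blue, 3 AAV-iIL12 in red). The AAV-iLuc and AAV-iIL12 bars stand at 84.5 and 51.9 for the group with taurine and creatine, and at 133.7 and 133.6 for the large neutral group.

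The 33 members that were not tested were scarce in both groups. Of these 12 had 0 counts in every library and the highest total was 74 counts, of Slc43a3. Those with over 10 counts in all include Slc43a3, Slc6a7 with 43, Slc7a2 with 33, Slc36a3 with 32 and Slc1a1 with 29. The others include the monoamine carriers Slc6a2, Slc6a3 and Slc6a4 with 5, 2 and 1 counts in all. With no low-count filter 49 members were tested, and 3 of those added were called as higher: Slc43a3, Slc7a2 and Slc6a19 (edgeR adjusted p = 0.00198, 0.020 and 0.0112). Slc7a2, the cationic carrier known for induction in inflammation, had 14, 4 and 8 counts in AAV-iIL12 and 5, 2, 0 and 0 in AAV-iLuc, a ratio of 5.16 in CPM over the groups. Slc6a19, a neutral amino acid carrier of gut and kidney, had 3, 5 and 2 counts against 0 in all controls, which is at least 4.63-fold higher when 3 counts are set as the floor for the controls together. Slc1a4 and Slc7a1 were gained and Slc7a4 and Slc1a5 lost. The calls of Slc43a3, Slc7a2 and Slc6a19 rest on few counts, in all 55, 26 and 10 in AAV-iIL12 against 19, 7 and 0 in AAV-iLuc. They came only once the filter was dropped, so they are no independent support.

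Promoter sequence is shown for 4 called genes, taken from RefSeq on GRCm38.p6, as the 250 bases before the gene's start. Slc38a2 and Slc6a9 are the 2 with a RefSeq entry among the 4 largest rises by named rule, and Slc38a9 and Slc43a1 were added after their matches were seen. Of 61 members 43 had an entry, and of the 15 called members 7 did. The motifs searched on both strands were TGATGNAAN, the core of the element bound by ATF4 and C/EBP factors in amino acid scarcity, TTCNNNGAA, the GAS element of STAT factors, GAAA followed after any 2 bases by GAAA, a core of the interferon-stimulated element, and CACGTG, the E-box of MYC and MITF. Capitals mark a match to any of them. The windows are chr15:96699729-96699978 on the minus strand for Slc38a2, and on the plus strand chr4:117835008-117835257 for the first of 3 starts of Slc6a9, chr13:112660516-112660765 for Slc38a9 and chr2:84840073-84840322 for Slc43a1.
Slc38a2: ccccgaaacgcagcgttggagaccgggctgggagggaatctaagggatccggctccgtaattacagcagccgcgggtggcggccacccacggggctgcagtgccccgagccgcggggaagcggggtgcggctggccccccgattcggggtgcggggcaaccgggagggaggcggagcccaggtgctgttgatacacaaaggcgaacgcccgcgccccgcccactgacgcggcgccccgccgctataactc
Slc6a9: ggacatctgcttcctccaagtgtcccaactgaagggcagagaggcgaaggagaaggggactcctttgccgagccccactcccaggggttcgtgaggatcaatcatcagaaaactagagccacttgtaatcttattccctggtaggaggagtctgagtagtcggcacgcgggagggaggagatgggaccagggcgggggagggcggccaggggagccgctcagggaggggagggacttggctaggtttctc
Slc38a9: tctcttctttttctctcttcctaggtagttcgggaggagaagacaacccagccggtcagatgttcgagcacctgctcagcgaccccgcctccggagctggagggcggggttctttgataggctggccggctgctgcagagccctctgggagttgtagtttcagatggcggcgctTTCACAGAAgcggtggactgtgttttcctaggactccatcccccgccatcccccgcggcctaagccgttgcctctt
Slc43a1: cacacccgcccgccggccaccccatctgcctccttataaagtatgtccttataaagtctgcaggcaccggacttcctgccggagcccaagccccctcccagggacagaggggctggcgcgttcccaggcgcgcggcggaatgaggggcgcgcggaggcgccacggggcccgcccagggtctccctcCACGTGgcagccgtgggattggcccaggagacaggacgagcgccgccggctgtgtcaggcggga

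No window of Slc38a2 or Slc6a9 held any of the 4 motifs, which says only that these letters are not in these 250 bases. Slc38a9, which rose, held 1 GAS match, TTCACAGAA, 76 to 68 bases before its start, and Slc43a1, which fell, held 1 E-box 64 to 59 bases before its start. GAS letters were in 3 of the 64 windows of members, 4.69%, and in 7.02% of all 32851 windows in the table. The ATF4 core was in 4.69% of the windows of members and 3.44% of all windows. The interferon core was in 0 of 64 against 2.98%. The E-box was in 9 of 64, or 14.1%, against 6.02% of all windows, and 8 of these 9 genes were not called or not tested. Windows of members were richer in G and C, at a median of 57.4% against 52.4% for all windows. Several starts were listed for 12 members, so the windows are not all separate genes. The part of either in these shares was not tested. A match is a description of the letters and not a site.

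Other genes of amino acid handling were called in both directions too, as were all tested genes, 23.5% as higher and 23.7% as lower. The counts of each list below are to be read beside those shares. In a list of 21 carriers outside the 6 subfamilies 14 were tested, 7 rose and 2 fell. Slc15a2, a carrier of short peptides, rose from 21.3 ± 1.87 to 78.6 ± 10.5 CPM (log2 fold change 1.88, edgeR adjusted p = 1.2e-06). Mfsd12, a cysteine carrier of lysosomes and melanosomes, rose from 21.7 ± 1.24 to 40.4 ± 1.64 CPM, and Slc25a22, a mitochondrial glutamate carrier, from 26.0 ± 2.42 to 50.5 ± 5.04 CPM. Slc15a3, a lysosomal carrier of histidine and peptides, was chosen after its value was seen, with the largest rise of the list from 0.744 ± 0.583 to 8.70 ± 2.82 CPM. Its log2 fold change was 3.53, or 4.22 when control replicate 1 was left out. The list's median log2 fold change was 0.15. Its 7 rises were not stable: across the alternatives between 5 and 7 genes rose and 1 or 2 fell. Scaled by upper quartile, or by library size alone, the list held 5 rises and 2 falls. Leaving out AAV-iIL12 replicate 1 gave 5 rises and 1 fall, and leaving out AAV-iIL12 replicate 3 gave 6 and 1.

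In the list of the amino acid stress response, 5 of 15 tested genes rose and 4 fell, with a median of 0.06. Atf4, its transcription factor, was at 296 ± 34.7 against 256 ± 25.3 CPM and was not called (edgeR adjusted p = 0.095), and Asns, the asparagine synthetase, was at 99.0 ± 14.0 against 96.1 ± 6.32 CPM. Ddit3, Sesn2, Nupr1, Cebpb and Psph rose, Ddit3 from 38.8 ± 8.21 to 74.2 ± 9.05 CPM. The 3 with the smallest p were lower: Psat1 and Phgdh, enzymes of serine synthesis, fell from 113 ± 6.62 to 68.6 ± 3.08 CPM and from 57.4 ± 3.56 to 34.6 ± 0.776 CPM, and Shmt2, which turns serine into glycine in mitochondria, from 132 ± 5.08 to 88.6 ± 2.55 CPM (edgeR adjusted p = 1.1e-05, 1.6e-05 and 1.6e-05).

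Of 29 genes for sensing of amino acids by mTORC1 at the lysosome, 5 rose, 4 fell and 20 were not called. Flcn and Fnip1, partners that act on the Rag GTPases, rose from 136 ± 9.61 to 219 ± 34.6 CPM and from 169 ± 11.4 to 246 ± 6.83 CPM, while Rragd, a Rag GTPase, fell from 67.5 ± 4.50 to 50.6 ± 1.70 CPM. Under scaling by upper quartile or by library size alone 4 rose and 8 fell. Mtor itself was at 95.4 ± 2.41 against 89.2 ± 0.154 CPM and was not called. In the list of glutamine and branched-chain amino acid enzymes 2 of 14 rose and 4 fell, and 1 rose and 7 fell with either of those scalings. Bcat1, which starts breakdown of branched-chain amino acids, fell from 66.7 ± 2.11 to 47.8 ± 3.72 CPM, and Gpt, an alanine transaminase, fell by 0.396 on the log2 scale. Genes of the next step after Bcat1 were called in opposite directions. Bckdha rose from 29.7 ± 3.22 to 42.8 ± 3.08 CPM, while Bckdhb fell from 13.1 ± 0.484 to 10.1 ± 1.08 CPM (edgeR adjusted p = 0.011). Glul, the glutamine synthetase, was not called at 164 ± 6.73 against 161 ± 5.86 CPM. When AAV-iIL12 replicate 3 was left out, 1 gene of this list rose in place of 2.

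Among the 4 controls, replicate 1, which stood apart in Gbp2 and leukocyte genes, was the library nearest to the AAV-iIL12 mean for 3 of the 15 called members, replicate 2 for 5, replicate 3 for 3 and replicate 4 for 4. Without it 5 members rose and 9 fell, the difference being Slc7a4.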

How the data were processed

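The deposited values were raw counts of fragments per gene in 7 libraries. Per the file headers, the authors counted with featureCounts 1.6.0 over exons by gene, with reverse-stranded and paired-end settings and GENCODE vM32. Per the submitters' processing notes, STAR 2.7.9a and the build GRCm39 were used. Symbols and gene types came from GENCODE vM21 by gene identifier, which matched 52029 of 56953 identifiers. Coordinates are those of the files.

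The test was edgeR's quasi-likelihood F-test (version 4.0.16, under R 4.3.3) on the counts, with TMM scaling and filterByExpr, which left 13990 genes, and Benjamini-Hochberg adjustment over all of them. The test was checked on simulated counts. CPM were scaled by TMM, and levels per kb divide CPM by the exon length in the files. SEs of log2 fold changes were derived from the F statistic. DESeq2 1.42.0 and limma 3.58.1 served as alternatives. Values are mean ± SD over 3 AAV-iIL12 and 4 AAV-iLuc libraries. The series' design text counts libraries as mice. No 2 libraries of the same group were found to be duplicates by a chi-square check of their counts. Pairs between the groups were not checked. Whether 1 library is 1 mouse is not stated otherwise, so p-values measure the spread between these libraries.

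The members, lists and motifs were chosen with earlier results of these data known. Genes were named by rule: the 10 called members with the largest absolute log2 fold change, the 6 with the highest level per length, all other called members, the 3 genes with the smallest p of each list, Slc3a2, Slc7a11, and untested members with over 10 counts. Promoters were taken for up to 4 members with the largest rises. Other genes were named after their values were seen. Some genes that the rule or the lists name are not reported here.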

Additional observations from a re-analysis of the deposited data

Results flagged for a closer look

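Slc36a4 in AAV-iLuc replicate 3 lay apart from the other controls, at 36.2 CPM against 38.5 to 38.9 CPM, a gap of 0.851 of the group's range. Of the 28 tested members in the 4 controls this was the only one past Dixon's 95% critical value, and chance alone gives about 1 in 20. The library still lay above the 3 AAV-iIL12 libraries.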

How the results depend on the processing

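The 16 alternatives were other scalings (3), filters (2), DESeq2, limma-voom, the replicate number as a block, a threshold of 0.01, and each of the 7 libraries left out. Across them between 4 and 9 members rose and between 6 and 13 fell, against 6 and 9. Of the 15 called members, 10 kept their call in each alternative and 0 changed direction. The median log2 fold change of -0.041 was -0.132 with library size only and -0.113 with upper quartile scaling, and ranged from -0.060 to 0.022 over the libraries left out, turning positive without AAV-iIL12 replicate 3. Among genes not called, 4 changed direction: Slc38a6 (log2 fold change -0.084 with library size only, -0.064 with upper quartile, -0.052 to 0.118 with a library left out), Slc7a7 (-0.001 with library size only), Slc7a5 (0.010 with the block, -0.057 to 0.023 with a library left out) and Slc6a20b (-0.676 to 0.246 with a library left out). The cause was not tested. Same-numbered libraries showed little shared deviation (r = 0.088, 0.034 and -0.049 over genes), and not every AAV-iIL12 library correlated best with its own number. With so few libraries this check cannot exclude a shared batch or day behind the numbers. With the replicate block 5 members rose and 8 fell, the calls of Slc7a4 and Slc1a5 ending (edgeR adjusted p = 0.0688 and 0.0592). Depth limits the 33 members with too few counts.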
